A study of Homo sapiens with 9 samples.

Results

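The 9 genes described here comprise 4 aldo-keto reductases of the AKR1 family (AKR1B10, AKR1C1, AKR1C2 and AKR1C3) and 5 genes best known as targets of the transcription factor NRF2 (NQO1, GCLM, GCLC, TXNRD1 and SRXN1). They were picked by name from the 58735 gene identifiers of an RNAseq count table, with the levels in all 3 groups of samples already known, so that their differences between groups are given as descriptions without a p-value. AKR1B10, NQO1 and TXNRD1 were expressed at higher levels upon PT2385 treatment, AKR1B10, AKR1C3 and TXNRD1 in the HIF2α knockout, and the groups overlapped for GCLM, GCLC and SRXN1. AKR1C1 was counted at a few reads per library, highest in the knockout, and AKR1C2 at 1 read in all 9 libraries together.

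The aldo-keto reductases are soluble enzymes that use NADPH to reduce aldehydes and ketones to alcohols. AKR1B10 acts on retinal and on reactive aldehydes, AKR1B1 is the aldose reductase of the polyol pathway, and the AKR1C enzymes reduce ketone groups of steroids, prostaglandins and other carbonyl compounds. NRF2, encoded by NFE2L2, is held in the cytoplasm and marked for degradation by KEAP1, and it is released when reactive cysteines of KEAP1 are modified by oxidants or electrophiles. In the nucleus it pairs with small MAF proteins on antioxidant response elements, where BACH1 competes with it, and it switches on genes for glutathione synthesis, thioredoxin reduction, NADPH supply and carbonyl reduction. In several human cell types AKR1B10 and the AKR1C genes are counted among its most responsive targets.

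All samples were 786-0 cells, an established line from a clear cell renal cell carcinoma. HIF2α, the product of EPAS1, escapes degradation in these cells for want of VHL, and it is the HIF α subunit that remains to them, HIF1α having been lost. The 3 control libraries came from wild type cells at 21% O2, the 3 PT2385 libraries from wild type cells that were given 10 µM of the HIF2α antagonist PT2385 for 48 h at the same oxygen level, and the 3 knockout libraries from 786-0 cells with the genotype hif2a KO, kept for 48 h without the drug. All were grown in DMEM with 5 mM glucose and 10% FBS. How the knockout was made and whether it is 1 clone is not given in the sources used here, so an effect of the lost gene and a difference between lines cannot be told apart, and the p-values given for other genes measure the spread between libraries that may be technical replicates.

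The libraries held 11881000 to 14730081 counts, and 3 counts, taken as the floor of detection, corresponded to 0.204 to 0.253 CPM, the unit of counts scaled to a common library total. EPAS1 had 256 ± 20.0 CPM (SD, n = 3) in control, 238 ± 16.8 with PT2385 and 22.1 ± 2.52 in the knockout, where it fell by 3.52 on the log2 scale (edgeR, adjusted p = 2.15e-09). The 5 HIF2 target genes looked up as a check of the drug (VEGFA, SLC2A1, NDRG1, EGLN3 and CA12) were down-regulated in both conditions, their median log2 fold changes being -2.31 upon treatment and -3.37 in the knockout. All 7 renal epithelial and carcinoma markers were detected (summed level 5846 to 6596 CPM), haematopoietic, endothelial and hepatocyte markers summed to at most 1.24 CPM, and the fibroblast markers summed to 6.94 to 8.89 CPM in control, 8.31 to 10.5 with PT2385 and 2.01 to 3.09 in the knockout, all of it from COL1A1 and PDGFRB with COL1A2 and DCN at 0. With 2 of the 4 fibroblast markers at 0 counts in a cell line, the levels of COL1A1 and PDGFRB are not read as fibroblasts being present. The part of these 2 genes in the knockout results was not tested. In bulk RNA fewer cells that express them and less RNA per cell cannot be told apart.

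The AKR1 genes are so alike that reads can be shared between them, which is shown here by the first 60 coding bases of the 3 AKR1C members (GENCODE annotation on GRCh38, chr10:4963445-4963504 on the plus strand, chr10:5003776-5003835 on the minus strand and chr10:5094445-5094504 on the plus strand). Capitals mark the bases that differ from AKR1C1.
AKR1C1: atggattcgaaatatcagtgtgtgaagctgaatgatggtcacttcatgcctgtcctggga
AKR1C2: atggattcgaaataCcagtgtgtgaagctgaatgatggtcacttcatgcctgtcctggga
AKR1C3: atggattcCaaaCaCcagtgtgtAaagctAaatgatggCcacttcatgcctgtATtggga
Over the whole coding sequence of 972 bases AKR1C1 and AKR1C2 were 98.0% identical, with 19 substitutions, and AKR1C1 and AKR1C3 were 91.5% identical. Of all stretches of 50 bases in the annotated transcripts, 24.9% of those of AKR1C1 and 36.0% of those of AKR1C2 also occurred in another gene, compared with 5.23% for AKR1C3. How reads that fit several genes were counted is not given in the sources used here, so the low values of AKR1C1 and AKR1C2 are uncertain to that extent.

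The AKR1B pair on chromosome 7 is less alike. Below are the first 60 coding bases of AKR1B10 (chr7:134527912-134527971, plus strand) and AKR1B1 (chr7:134459003-134459062, minus strand), in capitals where AKR1B1 differs from AKR1B10.
AKR1B10: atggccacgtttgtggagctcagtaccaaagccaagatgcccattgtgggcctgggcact
AKR1B1: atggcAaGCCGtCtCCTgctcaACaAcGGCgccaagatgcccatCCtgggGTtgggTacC
The coding sequences of AKR1B10 and AKR1B1 were 75.8% identical, and 14.5% of the 50-base stretches of AKR1B10 occurred in another gene, mostly AKR1B15. AKR1B15, whose coding sequence was 85.3% identical to that of AKR1B10, had 62 counts over all 9 libraries.

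The core of the antioxidant response element, searched as TGACNNNGC on both strands, is shown because it is the sequence through which NRF2 acts. RefSeq promoter windows of GRCh38.p14, from 250 bases before to 50 bases after a start, were matched for 8 of the 9 genes, all but AKR1B10. The letters occurred in the windows of GCLM and TXNRD1, and in 13.4% of all 35093 promoter windows. They were not in the windows of GCLC, AKR1C1, AKR1C2, AKR1C3, NQO1 and SRXN1. Sequence more than 250 bases before a start was not searched, so elements of these genes that lie further away would be missed. The 120 bases before the start of GCLM (chr1:93909431-93909550, minus strand) and before 2 starts of TXNRD1 (chr12:104215659-104215778 and chr12:104286912-104287031, plus strand) are given with the match in capitals.
GCLM: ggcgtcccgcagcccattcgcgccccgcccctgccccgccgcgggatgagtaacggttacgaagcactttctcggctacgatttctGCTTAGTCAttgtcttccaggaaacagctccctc
TXNRD1, first start: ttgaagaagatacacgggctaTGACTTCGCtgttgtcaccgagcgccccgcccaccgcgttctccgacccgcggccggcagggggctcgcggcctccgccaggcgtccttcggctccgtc
TXNRD1, second start: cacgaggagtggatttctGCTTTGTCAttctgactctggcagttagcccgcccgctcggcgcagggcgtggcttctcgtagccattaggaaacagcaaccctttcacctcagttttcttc
The match lay 34 to 26 bases upstream of the start in GCLM, 99 to 91 bases upstream of the first start of TXNRD1 and 102 to 94 bases upstream of the second. The match in GCLM and that at the second TXNRD1 start are on the opposite strand and read GCNNNGTCA as printed. Another match in TXNRD1 reaches over the first start itself and is not marked.

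AKR1B10 (ENSG00000198074, chr7:134527567-134541412, plus strand) was higher than in control both upon PT2385 treatment and in the knockout. Its normalized level was 5.19, 5.51 and 2.93 CPM in the 3 control libraries, 17.3, 16.4 and 15.6 CPM in the PT2385 libraries and 18.3, 22 and 15.9 CPM in the knockout libraries, from 35 to 67 counts in control and 215 to 318 in the others. Each PT2385 and each knockout library lay above every control library, whereas PT2385 and knockout overlapped. The log2 fold change was 1.85 (SE 0.183, 95% interval 1.45 to 2.25) upon PT2385 treatment and 2.05 (SE 0.210, 1.59 to 2.52) in the knockout, which correspond to 3.60-fold and 4.15-fold higher levels. Compared directly, the knockout differed from PT2385 by 0.19 on the log2 scale (SE 0.132), with an interval from -0.11 to 0.48. The lowest control library was replicate 3. Without any 1 library the log2 fold change stayed between 1.61 and 2.02 with PT2385 and between 1.81 and 2.21 in the knockout. The lower ends lay more than 1 SE below the values from all libraries.

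**Figure D1:**
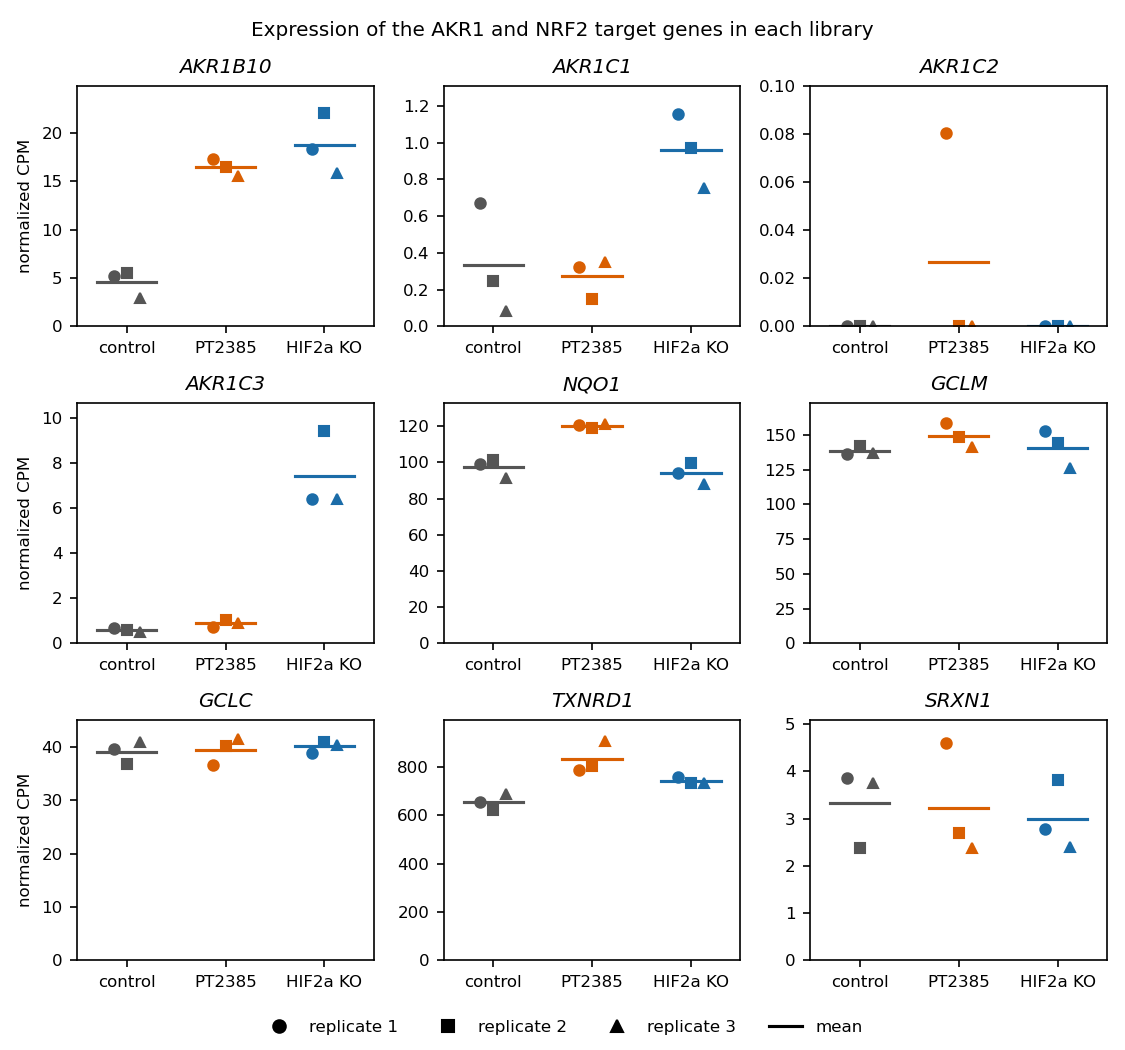
Normalized level in CPM (y axis, from 0, a separate scale for each gene) of the 9 genes in each library of the control, PT2385 and HIF2a KO groups (x axis), with a symbol for each replicate and a line at the mean of 3. For AKR1B10 the PT2385 libraries lie between 15.6 and 17.3 CPM and the control libraries between 2.93 and 5.51, for AKR1C3 the knockout libraries alone lie above 6 CPM, and for GCLC and SRXN1 the 3 groups overlap.

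AKR1C3 (ENSG00000196139, chr10:5035354-5107686, plus strand), a reductase that makes testosterone from androstenedione and acts on prostaglandins, was highest in the knockout. The control libraries had 8, 7 and 6 counts (0.670, 0.576 and 0.502 CPM), the PT2385 libraries 9, 14 and 13 counts (0.726, 1.05 and 0.908 CPM), and the knockout libraries 83, 136 and 93 counts (6.41, 9.42 and 6.39 CPM). The knockout libraries stood far above the other 6, and the PT2385 libraries lay just above the control libraries without overlap. In the knockout the log2 fold change was 3.66 (SE 0.282, interval 3.04 to 4.28) relative to control, or 12.7-fold, and 3.03 (SE 0.260, interval 2.46 to 3.61) relative to PT2385, or 8.19-fold. The comparison of PT2385 with control left AKR1C3 out, because it did not pass the filter on low counts there, and in the comparison with the knockout it passed only through the knockout libraries.

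AKR1C1 (ENSG00000187134, chr10:4963253-4983283, plus strand), which inactivates progesterone, was also highest in the knockout, at much lower counts. It had 8, 3 and 1 counts in control, 4, 2 and 5 with PT2385 and 15, 14 and 11 in the knockout, or 0.334 ± 0.303, 0.274 ± 0.109 and 0.961 ± 0.201 CPM (SD, n = 3). Every knockout library lay above every other library, with control replicate 1 (0.670 CPM) closest to the lowest knockout library (0.756 CPM). AKR1C1 passed the filter only in the comparison of knockout with PT2385, through the knockout libraries, with a log2 fold change of 1.77 (SE 0.438, interval 0.80 to 2.73). AKR1C2 (ENSG00000151632, chr10:4987775-5018031, minus strand), a dihydrotestosterone reductase, had 1 count in PT2385 replicate 1 (0.0807 CPM) and 0 in the other 8 libraries. A count of 0 allows up to 0.204 to 0.253 CPM per library, counting error only, and this limit holds for those 8 libraries and for AKR1C4, the liver member of the cluster, which had 0 counts in all 9.

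NQO1 (ENSG00000181019, chr16:69706996-69726668, minus strand), the quinone reductase most often used as a readout of NRF2, was higher with the drug than in control and in the knockout. Its level was 99.0, 101 and 91.4 CPM in control, 120, 119 and 121 CPM with PT2385 and 94.1, 99.6 and 88.2 CPM in the knockout. The PT2385 libraries lay above all 6 others, and control and knockout overlapped. The log2 fold change was 0.30 (SE 0.0637, interval 0.16 to 0.44) upon PT2385 treatment, a 1.23-fold difference, and -0.04 (SE 0.0709, interval -0.19 to 0.12) in the knockout. In the direct comparison the knockout was lower than PT2385 by 0.36 on the log2 scale (value -0.36, SE 0.0704, interval -0.51 to -0.20). With adjusted p under 0.05 over all genes as the limit, NQO1 no longer passed in the drug comparison without PT2385 replicate 2 (log2 fold change 0.31) or without control replicate 3 (0.26).

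TXNRD1 (ENSG00000198431, chr12:104215779-104350307, plus strand), the cytosolic thioredoxin reductase, had the highest level of the 9 genes, also per length of exon, with 7577 to 12990 counts per library. It had 657, 624 and 687 CPM in control, 787, 805 and 907 CPM with PT2385 and 759, 736 and 733 CPM in the knockout. The control libraries were lowest, the knockout libraries intermediate and the PT2385 libraries highest, with no overlap between any of the groups. The log2 fold changes were 0.34 (SE 0.0647, interval 0.20 to 0.48) with PT2385 and 0.19 (SE 0.0563, interval 0.07 to 0.32) in the knockout, and the knockout differed from PT2385 by -0.17 (SE 0.0680, interval -0.32 to -0.02), which did not pass the limit. The PT2385 difference no longer passed without control replicate 2 (0.31), and the knockout difference no longer passed without knockout replicate 1 (0.18), control replicate 1 (0.20) or control replicate 2 (0.15), or with all 9 libraries in a single model (0.18). TXNRD1 overlaps EID3 on the same strand, which held 1682 counts in all libraries together, a small part of the TXNRD1 counts.

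The 2 subunits of glutamate-cysteine ligase, which catalyses the first step of glutathione synthesis, had overlapping levels in the 3 groups. GCLM, the modifier subunit (ENSG00000023909, chr1:93885199-93909456, minus strand), had 139 ± 3.01 CPM in control, 150 ± 8.58 with PT2385 and 141 ± 13.6 in the knockout (SD, n = 3), with overlapping groups. Its log2 fold changes were 0.11 (interval -0.03 to 0.24) and 0.04 (interval -0.13 to 0.20). GCLC, the catalytic subunit (ENSG00000001084, chr6:53497341-53616970, minus strand), had 39.1 ± 2.12, 39.4 ± 2.47 and 40.1 ± 1.02 CPM (SD, n = 3), again with overlap. The intervals of its log2 fold changes ran from -0.17 to 0.19 with PT2385 and from -0.11 to 0.22 in the knockout.

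SRXN1 (ENSG00000271303, chr20:646615-653200, minus strand), sulfiredoxin, which restores overoxidized peroxiredoxins, had 46, 29 and 45 counts in control, 57, 36 and 34 with PT2385 and 36, 55 and 35 in the knockout. The groups overlapped throughout. Its log2 fold changes of -0.07 (interval -0.68 to 0.55) and -0.14 (interval -0.70 to 0.42) had wide errors, and differences within these intervals were not detectable at this depth. An annotated gene on the same strand, ENSG00000270299, shared 90.6% of the 50-base stretches of SRXN1 and had 1 count in all, and whether reads that fell in both genes were dropped was not tested.

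Of the 9 genes, 6 could be tested for PT2385 against control and 3 passed, all higher (AKR1B10, NQO1 and TXNRD1), where 7.7% of all 15089 tested genes passed (3.08% higher and 4.62% lower). In the knockout against control 7 were tested and 3 passed, all higher (AKR1B10, AKR1C3 and TXNRD1), where 30.1% of 15192 genes passed (14.7% higher and 15.4% lower). Between knockout and PT2385 8 were tested and 3 passed, AKR1C1 and AKR1C3 higher and NQO1 lower in the knockout, where 18.8% of 15402 genes passed (8.47% higher and 10.3% lower). AKR1C3 entered both knockout comparisons, and AKR1C1 the one with PT2385, only through the knockout libraries in which they are high, and the genes were chosen with the same comparisons in view, so nothing is read from these counts and the shares give the background only. Without overlap between the groups, 4 of the 9 were above control with PT2385 (13.4% of the tested genes) and 4 in the knockout (20.7%). These counts include AKR1C3 with PT2385 and AKR1C1 in the knockout, which did not pass the filter there. The shares cover tested genes only, so count and share rest on unlike sets. Below control were 0 of the 9 in either condition (12.6% and 23.1% of the tested genes). Knockout libraries lay above all PT2385 libraries for 2 of the 9 (16.7% of the tested genes) and below them for 2 (18.7%). With the replicate number as a block, 2305 instead of 1162 genes passed for PT2385 against control, and the same 3 members were among them.

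**Figure D2:**
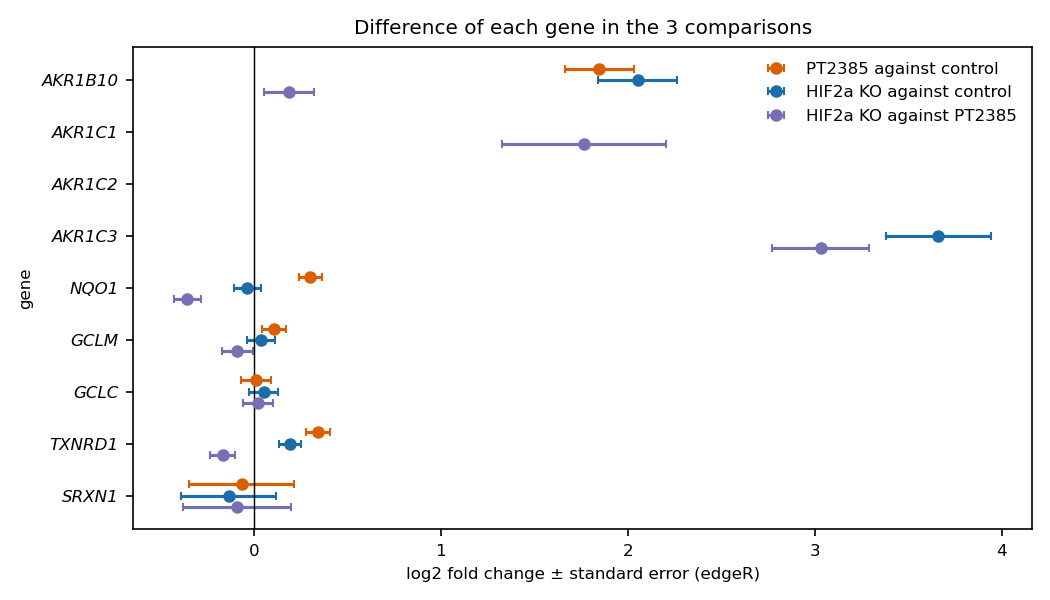
Log2 fold change (x axis) of the 9 genes (y axis) in PT2385 against control, HIF2a KO against control and HIF2a KO against PT2385, with bars for the standard error of the edgeR fit and no point where a gene did not pass the filter on low counts. AKR1B10 lies near 2 for the drug and the knockout, AKR1C3 at 3.66 for the knockout, NQO1 at 0.30 for the drug and -0.04 for the knockout, and GCLC near 0 in all 3 comparisons.

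Compared per length of exon, the reductases of these cells were dominated by a gene outside the 9. AKR1B1, whose start lies 68.3 kb from that of AKR1B10, had 406 ± 8.10 CPM per kb in control, 417 ± 31.0 with PT2385 and 802 ± 15.2 in the knockout (SD, n = 3). It held 90.8% of the summed AKR level in control, 89.7% with PT2385 and 93.3% in the knockout. AKR1B10 had 2.56 ± 0.796 CPM per kb in control, 9.28 ± 0.497 with PT2385 and 10.6 ± 1.75 in the knockout, and its share of the sum was 0.575%, 2.0% and 1.23%. AKR1C3 reached 1.89 ± 0.447 CPM per kb in the knockout, which lay within 1 SD of AKR7A3 (1.53 ± 0.209) and below AKR1B10. The sum over 13 AKR genes was 447 ± 8.31 CPM per kb in control, 465 ± 30.6 with PT2385 and 859 ± 10.9 in the knockout.

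AKR1B1 was higher in the knockout than in control by 0.995 on the log2 scale (SE 0.0502, edgeR, adjusted p = 1.11e-07) and higher than with PT2385 by 0.94 (adjusted p = 5.35e-06), while PT2385 and control differed by 0.04 (edgeR, adjusted p = 0.784). Beside these, the values of AKR1B10 were 1.85 with the drug and 2.05 in the knockout. Of the 5 other aldo-keto reductases that could be tested, 3 rose in the knockout (14.7% of all genes were higher there), AKR1B1, AKR1A1 (0.26, adjusted p = 0.0277) and AKR7A2 (0.28, adjusted p = 0.0271). The calls for AKR1A1 and AKR7A2 were lost without knockout replicate 1, knockout replicate 2 or control replicate 2, that for AKR1A1 also without control replicate 3 and that for AKR7A2 also without control replicate 1 (adjusted p from 0.0735 to 0.129). With PT2385, where 7.7% of all genes passed, 0 of the 5 passed by edgeR or DESeq2, and 0 had an unadjusted p under 0.05. Both fits left out the replicate block, with which 2305 instead of 1162 genes passed in that comparison. The count for these 5 genes with the block is not given here. Within the set of 9, and per kb of exon in control, TXNRD1 was highest (97.8 ± 4.74 CPM per kb), followed by NQO1 (32.7 ± 1.72), GCLM (25.5 ± 0.555), GCLC (4.54 ± 0.246), AKR1B10 (2.56 ± 0.796), SRXN1 (1.32 ± 0.325), AKR1C3 (0.149 ± 0.0216) and AKR1C1 (0.0381 ± 0.0345). The neighbours in this order lay further apart than the sum of their SDs. An SD does not measure reads lost to sequence shared between genes, so the places of SRXN1 and AKR1C1 are uncertain to that extent.

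**Figure D3:**
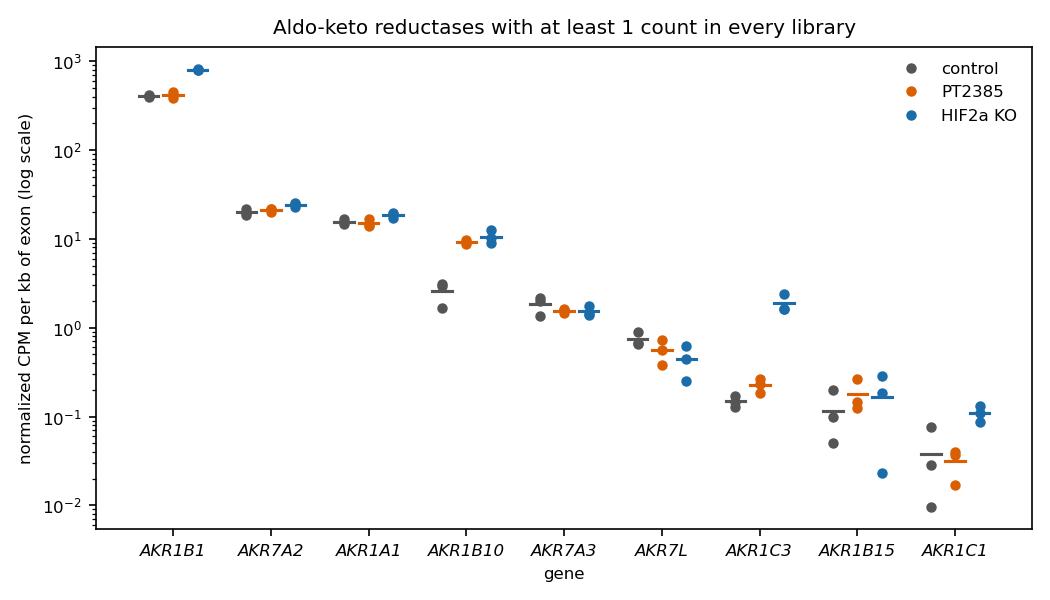
Level in CPM per kb of exon (y axis, log scale) of the 9 aldo-keto reductases with at least 1 count in every library (x axis), with a point for each library and a line at the mean of 3 in control, PT2385 and HIF2a KO. AKR1B1 lies at 406 to 802 CPM per kb, far above the others, AKR1B10 rises from 2.56 in control to 9.28 and 10.6, and AKR1C3 reaches 1.89 in the knockout.

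Within 500 kb of AKR1B10, 5 of 12 neighbours were tested in every comparison, and with PT2385 their log2 fold changes ran from -0.09 to 0.04, and 0 of the 5 passed (7.7% of all genes). In the knockout 2 of the 5 passed (30.1% of all genes). CALD1, an actin-binding protein gene whose start lies 217 kb away, was lower (-0.35, edgeR, adjusted p = 0.00716), AKR1B1 was higher, and SLC35B4, BPGM and AGBL3 did not pass. Within 500 kb of AKR1C1, 13 of 23 neighbours had 0 counts in all libraries. The long noncoding RNA MANCR fell with PT2385 (-1.41, edgeR, adjusted p = 3.9e-05) and in the knockout (-0.90, adjusted p = 0.00272), and NET1 did not pass in either comparison.

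Of 14 listed regulators of NRF2, 13 were tested, and 1 passed with PT2385 (7.7% of all genes) and 4 in the knockout (30.1% of all genes). NFE2L2 itself had 133 ± 1.61 CPM in control, 136 ± 2.22 with PT2385 and 146 ± 8.97 in the knockout (SD, n = 3), with adjusted p of 0.821 and 0.101 by edgeR. KEAP1 had 95.03 ± 5.95, 104 ± 5.01 and 99.7 ± 1.96 CPM (adjusted p = 0.348 and 0.372). BACH1, the repressor that competes with NRF2, was down-regulated with PT2385 (-0.30, edgeR, adjusted p = 0.0271), a call lost without PT2385 replicate 2 or without any 1 of the control replicates (adjusted p from 0.0525 to 0.117). In the knockout MAFG, a small MAF partner, fell by 0.25 on the log2 scale (edgeR, adjusted p = 0.0181, lost without knockout replicate 2, control replicate 1 or control replicate 2), NFE2L1, the NRF1 gene, fell by 0.49 (0.00066), and SQSTM1, the autophagy receptor that binds KEAP1, rose by 0.63 (0.00157). The fourth call was GSK3B, a kinase that marks NRF2 for degradation, which was higher. These RNA levels do not measure the amount or the location of the NRF2 protein.

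Beyond the 9 genes, 36 other genes regarded as NRF2 targets were listed, and 34 were tested. They were listed with earlier results of these data known, so the shares are descriptions and not independent support. Upon PT2385 treatment 8 of them (23.5%) passed, 7 higher and 1 lower, with a median log2 fold change of 0.15 over the 34, where 7.7% of all genes passed with a median of 0.00. In the knockout 18 (52.9%) passed, 15 higher and 3 lower (SLC6A6, ABCC1 and ABCC4), with a median of 0.20, where 30.1% of all genes passed. Between knockout and PT2385 6 (17.6%) passed, 4 higher (EPHX1, SLC48A1, MGST1 and ABCC3) and 2 lower (SLC6A6 and ABCC1), where 18.8% of all genes passed. The count with PT2385 fell to 5 without PT2385 replicate 2 or without any 1 of the control replicates, and the count between knockout and PT2385 rose to 12 without knockout replicate 3. By DESeq2 7 passed with PT2385, 17 in the knockout and 7 between knockout and PT2385.

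EPHX1, the microsomal epoxide hydrolase, and SLC48A1, a haem transporter, rose with the drug and further in the knockout. EPHX1 had 45.9, 41.6 and 40.9 CPM in control, 62.3, 68.7 and 65.1 with PT2385 and 105, 115 and 108 in the knockout, with no overlap between the groups. Its log2 fold change was 0.61 with PT2385 (edgeR, adjusted p = 0.000286), 1.37 in the knockout (1.77e-07) and 0.74 between them (6.11e-05). SLC48A1 had 5.21 ± 0.706, 9.72 ± 0.950 and 25.3 ± 1.82 CPM (SD, n = 3), with log2 fold changes of 0.90 (edgeR, adjusted p = 0.00357), 2.29 (3.09e-07) and 1.38 between knockout and PT2385 (2.22e-05). MGST1, a membrane-bound glutathione transferase, had 34.7 ± 2.0 CPM in control, 39.1 ± 0.972 with PT2385 and 111 ± 8.41 in the knockout, and rose in the knockout relative to control (1.69, edgeR, adjusted p = 6.59e-08) and relative to PT2385 (1.5, 1.07e-06).

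Other targets passed with smaller values. GSR, glutathione reductase, rose by 0.47 with PT2385 (edgeR, adjusted p = 0.000792) and by 0.46 in the knockout (0.000884). FTL, the ferritin light chain, rose by 0.55 in the knockout (0.000759) and by 0.30 with PT2385 (0.0401), the latter lost in the model of all 9 libraries (0.0673) and without any 1 of the 3 control replicates, PT2385 replicate 1 or PT2385 replicate 2 (adjusted p from 0.0653 to 0.18). CYP4F11, a fatty acid hydroxylase, passed narrowly with PT2385 (0.63, edgeR, adjusted p = 0.0495) and in the knockout (0.53, 0.0302), and missed the limit with DESeq2 (adjusted p = 0.0838 and 0.0941) and without any 1 control replicate, replicate 1 or replicate 2 of either condition (0.0542 to 0.18). HMOX1, haem oxygenase, had 9.76 ± 2.38, 12.2 ± 2.08 and 15.96 ± 4.08 CPM and passed in the knockout (0.72, edgeR, adjusted p = 0.0282), with overlap between the groups, and not without knockout replicate 1, knockout replicate 2 or control replicate 3 (adjusted p from 0.0731 to 0.106). The difference between knockout and PT2385 for HMOX1 was 0.39 (edgeR, adjusted p = 0.208), and without knockout replicate 3 it was 0.59 and passed (0.0164).

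The taurine transporter SLC6A6 went the other way, from 364 ± 50.1 CPM in control to 188 ± 5.75 with PT2385 and 119 ± 19.6 in the knockout (SD, n = 3). It fell by 0.95 on the log2 scale with the drug (edgeR, adjusted p = 1.9e-05) and by 1.60 in the knockout (3.31e-06). Several enzymes of the same list gave no call in either condition. PGD, TKT, TALDO1 and ME1, which supply NADPH, had log2 fold changes of 0.08 to 0.14 with PT2385 and 0.03 to 0.21 in the knockout, and PRDX1, a peroxiredoxin, -0.01 and 0.11. Without knockout replicate 3, PGD, TKT and ME1 passed in the knockout (0.30, 0.22 and 0.31, edgeR, adjusted p = 0.0275, 0.0172 and 0.0131). SLC7A11, the cystine transporter subunit, had 142 ± 34.8, 168 ± 49.9 and 119 ± 11.9 CPM, and for PT2385 against control it passed only with the replicate block (0.23, edgeR, adjusted p = 0.00728) or with no filter on low counts (0.24, 0.0244), against 0.24 and adjusted p = 0.537 as reported. Without PT2385 replicate 1 this value was -0.02 (edgeR, adjusted p = 0.968). In the knockout SLC7A11 did not pass (-0.24, edgeR, adjusted p = 0.25), but it passed as lower without control replicate 3 (-0.39, 0.044) and with no filter on low counts (-0.24, 0.00966).

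**Figure D4:**
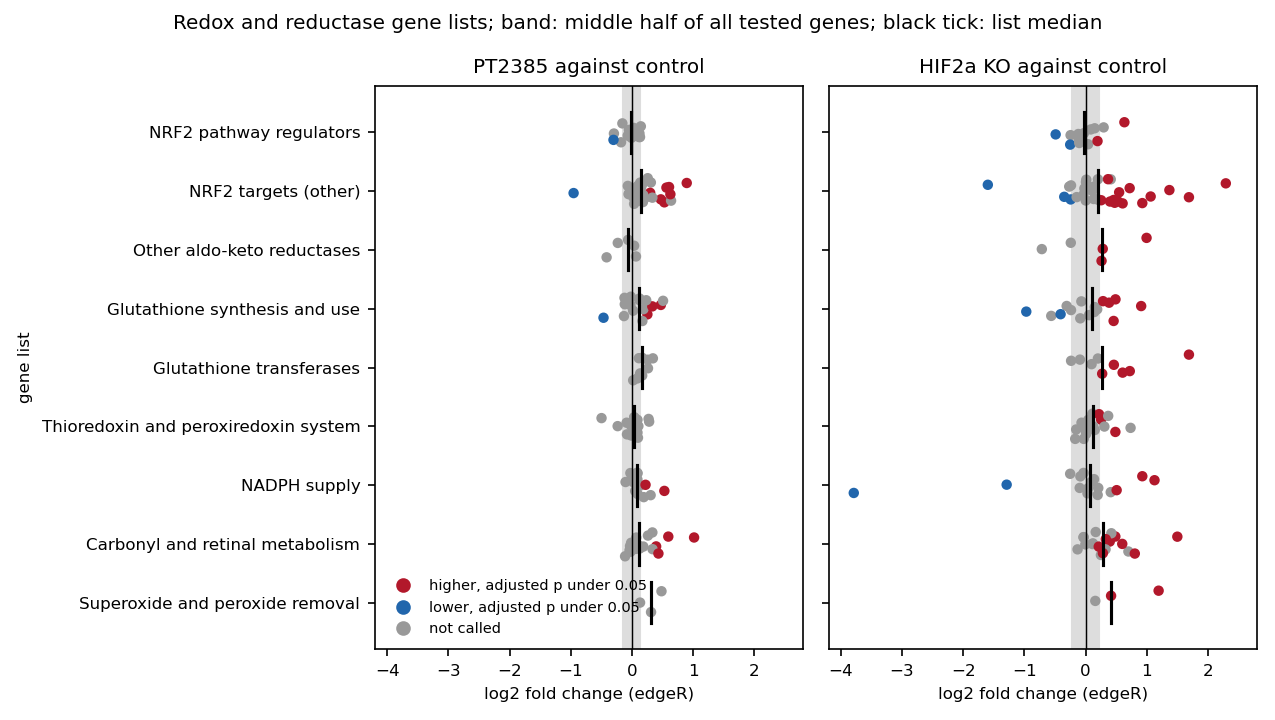
Log2 fold change (x axis) in PT2385 against control (left) and HIF2a KO against control (right) of the tested genes of 9 gene lists without the 9 members (y axis), red or blue where the gene was higher or lower with adjusted p under 0.05, with a black tick at the list median and a grey band for the middle 50% of all tested genes. The other NRF2 targets have a median of 0.15 with PT2385 and 0.20 in the knockout, with SLC6A6 at -0.95 and -1.60, and in the knockout ALDH1L2 stands apart at -3.79.

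The remaining lists cover the pathways these genes feed, and their counts stand beside 7.7% of all genes called with PT2385 (3.08% higher) and 30.1% in the knockout (14.7% higher). The counts are from fits without the replicate block, and those with it are not given for these lists. For glutathione synthesis and use 4 of 17 tested genes passed with PT2385, GSR, GGT1 and GPX8 higher and SLC3A2 lower, and 7 of 16 in the knockout (5 higher, 2 lower). SLC3A2, the heavy chain partner of SLC7A11, fell by 0.46 with PT2385 (edgeR, adjusted p = 0.000989) and by 0.97 in the knockout (6.24e-06), and GLRX, glutaredoxin, rose in the knockout (0.91, 0.00792). Among 9 glutathione transferases 0 passed with PT2385 by edgeR or DESeq2, with 1 at an unadjusted p under 0.05. In the knockout 5 rose by edgeR (MGST1, MGST2, GSTK1, GSTO1 and GSTM3), and 4 passed by DESeq2. The call for GSTM3 (0.60, edgeR, adjusted p = 0.0142) was lost without control replicate 1 or 2 (0.0571 and 0.0537). Of 16 thioredoxin and peroxiredoxin genes 0 passed with PT2385 by edgeR or DESeq2, with 2 at an unadjusted p under 0.05, and 3 rose in the knockout (TXN, PRDX6 and SESN1).

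For NADPH supply 2 of 16 genes (12.5%, where 7.7% of all genes passed) passed with PT2385, both higher, and 1 by DESeq2. In the knockout 5 passed (31.2%, where 30.1% of all genes passed), 3 higher and 2 lower. The lower ones were mitochondrial, IDH2 (from 74.7 ± 2.67 CPM in control to 30.2 ± 4.03, log2 fold change -1.29, edgeR, adjusted p = 2.28e-06) and the folate enzyme ALDH1L2 (from 7.10 ± 2.39 to 0.499 ± 0.173 CPM, -3.79, 1.88e-05), and both had overlapping levels in PT2385 and control. For carbonyl and retinal metabolism 4 of 18 genes rose with PT2385 (ALDH1A1, ALDH3A2, RDH10 and ALDH9A1) and 8 of 19 in the knockout, 22.2% and 42.1% of those tested, with none lower. ALDH1A1, which oxidizes the retinal that AKR1B10 reduces, rose with the drug, from 57.1 ± 7.05 to 116 ± 2.99 CPM (1.02, edgeR, adjusted p = 9.1e-06), and had 56.3 ± 17.5 CPM in the knockout, lower than with PT2385 by 1.04 (value -1.04, adjusted p = 0.00183). ALDH3A2, a fatty aldehyde dehydrogenase, rose in both, by 1.5 in the knockout (edgeR, adjusted p = 3.22e-06) and by 0.59 with PT2385 (0.0124, lost without control replicate 1 or 2, 0.0625 and 0.0684), and ALDH1A3 (0.80, 0.0016) and ALDH2 (0.60, 0.000571) passed in the knockout. Of 3 superoxide and peroxide enzymes 0 passed with PT2385 by edgeR or DESeq2, with 1 at an unadjusted p under 0.05, and 2 rose in the knockout (SOD3 and CAT).

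Over all these lists together, without the 9 genes, 17 of 117 tested genes (14.5%) passed with PT2385, 14 of them higher, and 49 of 117 (41.9%) in the knockout, 40 of them higher. Between knockout and PT2385 29 of 118 (24.6%) passed, 18 higher and 11 lower. The shares over all genes were 7.7%, 30.1% and 18.8%. All lists were chosen with earlier results of these data known, so these counts too are descriptions only.

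The genes with the profile most like a member's across the 9 libraries, among 10139 genes with a mean of at least 100 counts, were found from the Pearson correlation of log2 CPM. For AKR1B10 they were BCL9 (r = 0.982), SHISA5 (0.977), MAPK12 (0.967), TRAF3IP2 (0.966) and PELO (0.961). The correlation takes no account of the size of a change. BCL9 had mean levels of 65.5, 86.7 and 85.3 CPM in control, PT2385 and knockout, where AKR1B10 had 4.54, 16.5 and 18.7. For NQO1 they were HDAC1 (0.982), ERFE (0.951), AKIRIN2 (0.948), DUSP12 (0.941) and ID1 (0.941). For AKR1C1, with 1 to 15 counts per library, the closest was OSBPL2 (0.952), followed by MEF2D, STAMBP, CRIPT and NDRG3 (0.951 to 0.937). The 9 libraries form 3 groups and share their scaling, so these values describe group levels more than independent samples, and they carry no test.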

How the data were processed

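RNAseq was measured in 786-0 cells in 3 groups of 3 libraries, assigned from the sample labels. The authors checked reads with FastQC, trimmed them with cutadapt, aligned them to GRCh38 with STAR and counted them on genes with featureCounts, and deposited raw counts per gene. Versions, annotation release, strand and the treatment of multi-mapping reads are not given in the sources used here. The 9 genes and all gene lists were chosen with earlier results of these data known.

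Of 58735 identifiers, 58207 were paired with GENCODE release 44. CPM were computed from the counts with TMM factors (0.9882 to 1.016). For each comparison the 6 libraries concerned were fitted alone in R 4.3.3 with edgeR (version 4.0.16), using filterByExpr (minimum of 10 counts). The quasi-likelihood F test was used, and p-values of every gene tested were adjusted after Benjamini-Hochberg, with an adjusted p under 0.05 as the limit. DESeq2 1.42.0, which the study used, and other scalings, filters, the replicate block, a model of all 9 libraries and leaving out each library were alternatives. Scripts were tested on simulated data. The genes named besides the 9 and EPAS1 are those of the lists that passed with a 1.5-fold change and a mean of 50 counts, at most 4 per list and comparison, plus NFE2L2, KEAP1, BACH1 and MAFG. All others, among them GSR, FTL, HMOX1, SLC7A11, PGD, TKT, TALDO1, ME1, PRDX1, AKR1A1, AKR7A2, NFE2L1, SOD3 and CAT, were chosen after their values were seen. Same-numbered replicates of PT2385 and control deviated together in all 3 pairs (r from 0.104 to 0.404), with r over 0.1 as the limit. In the other comparisons not every pair passed it. There r ran from 0.0327 to 0.419 for knockout and control, and from 0.0624 to 0.374 for knockout and PT2385. The lowest pair was replicate 2 in each comparison, and the other same-numbered pairs had r of 0.279 or more. Replicate 2 of PT2385 and control, at 0.104, was close to the limit and to an unmatched pair (control replicate 1 and PT2385 replicate 2, 0.0785). The comparisons thus differ by this limit only in replicate 2. AKR1C8P and SOD2 were not analysed here, and many genes of the lists are counted but not reported by name.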

Additional observations from a re-analysis of the deposited data

How the results depend on the processing

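For the 9 genes, 10 of 268 values under the alternatives no longer passed the limit, and 258 stayed on the same side of it. The sign was kept in 255 and changed in 13, all of genes that did not pass, when a library was left out. These were SRXN1 (-0.40 to 0.12 with PT2385, -0.35 to 0.01 in the knockout), GCLC (-0.03 to 0.06 with PT2385, -0.02 to 0.07 between knockout and PT2385), GCLM (-0.02 to 0.11) and NQO1 (-0.08 to 0.01) in the knockout, and SRXN1 between knockout and PT2385, which went from -0.09 to 0.25 without PT2385 replicate 1. AKR1B10 lost no call, and AKR1C3 none wherever it was tested. AKR1C1 between knockout and PT2385 no longer passed with DESeq2 (log2 fold change 1.81), without knockout replicate 1 (1.62) or without PT2385 replicate 2 (1.48). In the model of all 9 libraries and without knockout replicate 2 it was not tested there, which left 2 of the 9 genes instead of 3. With at least 10 counts in every library AKR1C1 and AKR1C3 were not tested. That left 1 of the 9 genes instead of 3 between knockout and PT2385 and 2 instead of 3 in the knockout against control. With the replicate number as a block, 2305 genes passed for PT2385 against control instead of 1162, and 12 instead of 6 other NRF2 targets between knockout and PT2385, where no filter on low counts gave 10. The block changed no call of the 9 genes. Of the other genes named only a part was followed one by one with the block, and GSK3B, ABCC1, MGST2 and SOD3 were among those not followed. Among the genes followed the block removed no call and added SLC7A11 with PT2385. It also added PGD, ME1 and NET1 in the knockout, and HMOX1, SLC7A11, FTL and CALD1 between knockout and PT2385. In these 2 comparisons the pair of replicate 2 had r under 0.1, and for PT2385 and control it was just over, at 0.104. Leaving out each library gave 574 to 1451 genes for PT2385 against control (574 without PT2385 replicate 2, 654, 581 and 728 without control replicates 1, 2 and 3), 3344 to 5094 for the knockout against control and 1836 (without PT2385 replicate 2) to 3190 between knockout and PT2385. The other NRF2 targets that passed then numbered 5 to 9, 14 to 22 and 5 to 12, and the 9 genes 2 to 3, 2 to 4 and 2 to 3. DESeq2 called 1075, 3972 and 2612 genes. The causes were not tested. With 3 libraries per group and 1 to 15 counts for AKR1C1, and 29 to 57 for SRXN1, counting error limits both.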
